A study of Mus musculus with 20 samples.

Results

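The monovalent antibody 13-3B5xb12 was examined on agrin-treated C2C12 myotubes, as 4 libraries of total RNA against 4 libraries of cells that received agrin and the control antibody b12. The 8 libraries were taken from the 20 of the study by their treatment and replicate labels, and a 13-3B5xb12 library was paired with the agrin library of the same replicate number. C2C12 is an established mouse myoblast line, here differentiated for 5 days into multinucleated myotubes and treated for 16 h, so all values come from 1 line cultured without nerve. The agrin group received 0.1 nM neural agrin together with 7.7 nM b12, which served as control antibody in human IgG4 format. The 13-3B5xb12 group received the same agrin with 7.7 nM of a bispecific human IgG4 that has 1 arm of the MuSK antibody 13-3B5 and 1 arm of b12, and that the labels call MuSK-inhibiting. A further 3 treatments, with 4 libraries each, serve only as reference: 7.7 nM b12 without agrin (the control), 7.7 nM bivalent 13-3B5 without agrin, and 0.1 nM agrin with 7.7 nM 11-3F6xb12, the other monovalent antibody.

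MuSK is the receptor tyrosine kinase that organises the muscle side of the neuromuscular synapse. Agrin released by the nerve binds Lrp4, which holds MuSK in an active dimer; the adaptor Dok7 binds the kinase inside the cell, and rapsyn then gathers acetylcholine receptors into clusters. An antibody that holds MuSK with both arms can bring a pair of receptors together, whereas one that holds it with a single arm cannot. In muscle fibres the nuclei under the synapse transcribe acetylcholine receptor subunit genes through E-boxes, which bind myogenic factors, and through the N-box, which binds ETS factors such as GABP. The comparison asks whether a single-armed antibody to MuSK shifts the transcripts of myotubes that are exposed to agrin.

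Promoters of subunit genes and of a pair of neighbouring proteoglycan genes are shown as background, because values of these genes are described below. No value below depends on the promoter matches. Each is the 250 bases before the RefSeq transcription start (GRCm38.p6), 5′ to 3′ on the gene's strand, with E-boxes (CANNTG, a motif that reads the same on both strands) and the N-box core (CCGGAA, looked for on both strands) in capitals. Chrna1 lies on the minus strand at chr2:73580339-73580588, Chrne on the minus strand at chr11:70619195-70619444, Ogn on the plus strand at chr13:49607765-49608014 and Aspn on the plus strand at chr13:49544193-49544442.
Chrna1: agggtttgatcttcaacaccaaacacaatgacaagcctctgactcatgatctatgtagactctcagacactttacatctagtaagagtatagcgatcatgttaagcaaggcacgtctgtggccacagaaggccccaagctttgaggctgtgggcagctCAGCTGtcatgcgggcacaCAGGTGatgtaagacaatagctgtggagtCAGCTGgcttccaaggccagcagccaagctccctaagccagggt
Chrne: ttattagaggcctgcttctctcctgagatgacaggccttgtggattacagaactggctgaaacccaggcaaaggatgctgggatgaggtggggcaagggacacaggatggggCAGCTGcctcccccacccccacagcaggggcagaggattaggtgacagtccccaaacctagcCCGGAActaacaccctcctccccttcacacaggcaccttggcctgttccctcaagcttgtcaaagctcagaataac
Ogn: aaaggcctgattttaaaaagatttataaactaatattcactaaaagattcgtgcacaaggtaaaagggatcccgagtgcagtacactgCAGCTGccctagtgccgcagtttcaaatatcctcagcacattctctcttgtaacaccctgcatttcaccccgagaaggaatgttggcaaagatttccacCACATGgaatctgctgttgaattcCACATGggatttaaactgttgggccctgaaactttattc
Aspn: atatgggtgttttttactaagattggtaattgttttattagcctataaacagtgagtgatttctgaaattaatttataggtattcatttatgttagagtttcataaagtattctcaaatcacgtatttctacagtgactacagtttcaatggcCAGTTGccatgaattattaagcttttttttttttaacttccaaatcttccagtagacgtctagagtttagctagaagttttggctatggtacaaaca
Chrna1 and Ogn have 3 E-boxes each, Aspn has 1, and Chrne has 1 E-box and 1 N-box core, with no overlap between matches. The promoters of Chrnb1, Chrng and Musk hold 3 E-boxes each. Of 32851 RefSeq promoters of this length, 66.2% hold at least 1 CANNTG, 12.2% hold at least 3, and 12% hold CCGGAA. A match describes letters and not a bound site.

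Total counts of the 8 libraries ranged from 18771259 to 22643160. All 12 myotube markers on the list used were measured above the filter, and their summed level ranged from 16627 to 20285 CPM (counts scaled to a common library size and for library composition) with agrin and from 15403 to 19559 CPM with 13-3B5xb12. Of the markers of other cells, 0 of 14 hepatocyte and 0 of 5 erythroid genes in the table passed the filter, and the ranges of the 2 groups overlapped for leukocyte (7.26 to 11.4 CPM), endothelial (0 to 2.098), adipocyte (3.43 to 6.62), Schwann and neuron (32.5 to 52.4) and myoblast (2315 to 2689) genes. The summed hepatocyte markers reached 24.4 CPM in agrin replicate 3 and at most 0.509 CPM in the other 7 libraries. Genes with at least 1 count numbered 16261 in 13-3B5xb12 replicate 1, against 17811, 17938 and 18009 in replicates 2 to 4 of that group and 17758, 17089, 17109 and 18018 in the agrin group. The group means, 17505 ± 833 and 17494 ± 468 (SD, n = 4), differed by 11.3 genes (exact permutation p 0.971, two-sided, smallest possible 0.0286). In the same library the deviation from the mean of all libraries rose by 0.12 on the log2 scale per doubling of exon length, while the other 7 lay between -0.05 and 0.04, and its quality weight in limma's voom (0.269) was the lowest of 20. Control replicate 2 had a slope of 0.099 and the next lowest weight, 0.350, but 17905 genes with counts. The reference without agrin thus also holds a library with a slope on exon length, though not one with few genes. Values of named genes that moved by over 1.5 times without 13-3B5xb12 replicate 1 are given both ways, and its part in the others was not tested. In bulk RNA fewer cells of a type and less RNA per cell cannot be told apart.

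**Figure D1:**
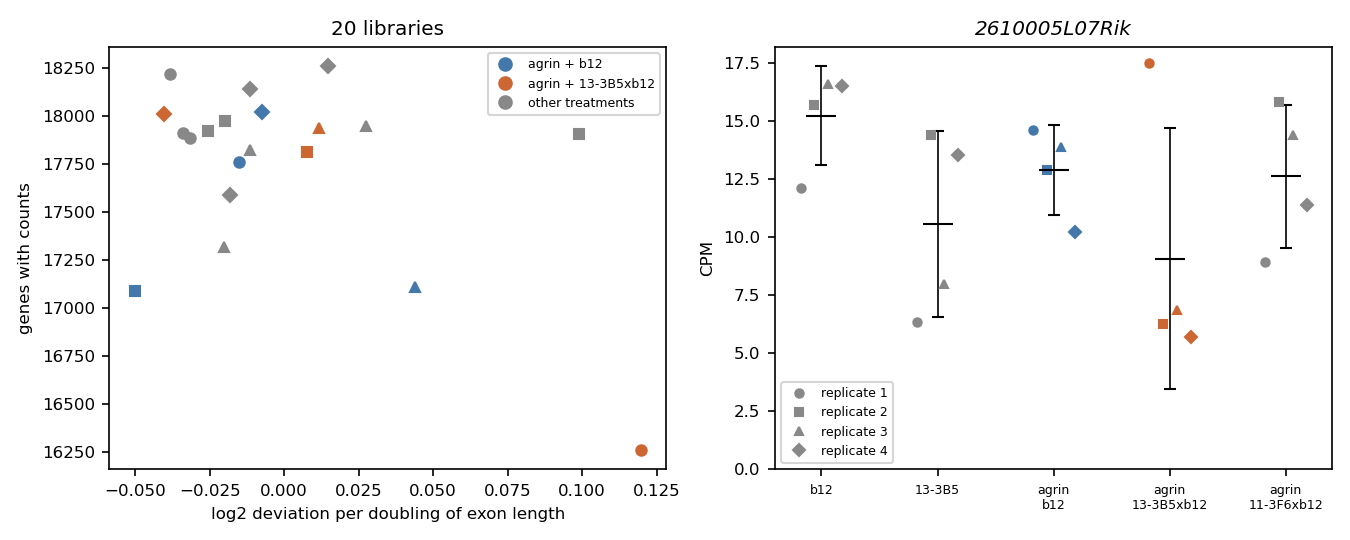
Left, genes with at least 1 count against the slope of each library's log2 deviation on exon length, one point per library, with point shapes for replicate numbers. Right, CPM of 2610005L07Rik in the 5 treatments, points for libraries and bars for mean ± SD (n = 4). 13-3B5xb12 replicate 1 has 16261 genes and a slope of 0.12, with control replicate 2 next at 0.099; its 17.5 CPM on the right is above the other 13-3B5xb12 libraries (5.67 to 6.87) and near the control libraries, which reach 16.6.

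No gene passed an adjusted p under 0.05 between 13-3B5xb12 and b12 on agrin-treated myotubes. Of 14605 genes tested with edgeR's quasi-likelihood test and replicate number as a block, 0 were called (0%), and the smallest adjusted p was 0.929. The Wald test of DESeq2 also called 0, and edgeR without a filter on low counts called 25, 4 higher and 21 lower. Of the named genes these included Tspan8, Aspn, Pi15, Cox7a1, Grem1 and Tnnc1, with adjusted p-values from 0.00517 to 0.0455. An unadjusted p under 0.05 was reached by 733 genes (5.02%), 307 higher (2.1%) and 426 lower (2.92%) with 13-3B5xb12, where evenly spread p-values would give 5%. The ranges of the 2 groups did not overlap for 153 genes that were higher (1.05%) and 184 that were lower (1.26%), and all 4 pairs had the same sign for 858 higher (5.87%) and 853 lower (5.84%) genes. For the 8818 genes of at least 8 CPM the fold changes had a median SE of 0.10 on the log2 scale and 95% of their absolute values were under 0.25, while the median SE was 0.45 below 8 CPM. Of 40 genes named here with an unadjusted p under 0.05, 29 stayed under it in each of 8 fits that left out 1 library of either group. The 11 exceptions were Ccnb1, Cdh15, Etv1, Ier3, Ifit1, Lef1, Mcm2, Myl4, Mymx, Pmvk and Tnnc1. The 40 are those named by rule, most of them for small p-values in these same libraries. That choice favours staying under 0.05, so the 29 are a description and no test. The matching share over all genes was not computed.

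Without 13-3B5xb12 replicate 1, 1 of 14963 genes was called (0.00668%), and 600 had an unadjusted p under 0.05 (4.01%), 291 higher (1.94%) and 309 lower (2.07%). Of these 600 and the 733 above, 300 were shared, all with the same direction. The called gene, 2610005L07Rik (ENSMUSG00000071793, chromosome 8, 20385782 to 20424814), is annotated as a transcribed unprocessed pseudogene, so reads from its parent gene could have been counted there and its value is uncertain. It measured 14.6, 12.9, 13.9 and 10.2 CPM in agrin replicates 1 to 4, and 17.5, 6.24, 6.87 and 5.67 CPM in 13-3B5xb12 replicates 1 to 4. Replicate 1 was the highest of the 8 libraries and replicates 2 to 4 were the lowest 3. The log2 fold change was -0.51 (SE 0.36, edgeR adjusted p 0.929) with all libraries and -1.15 (SE 0.21, adjusted p 0.0474) without replicate 1. The bivalent form of the antibody, given without agrin, also spread widely, with 6.34, 14.4, 7.99 and 13.5 CPM. Against the control without replicate 1, the same gene was the 1 called (0.00668%), at -1.37 on the log2 scale (SE 0.20, edgeR adjusted p 0.00181).

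The receptor and its partners did not separate the groups. Musk (ENSMUSG00000057280, chromosome 4, 58285960 to 58374303), the kinase that the antibody binds, measured 43.9, 50.2, 54.6 and 51.2 CPM in agrin replicates 1 to 4 and 47.5, 49.9, 52.1 and 50.7 CPM with 13-3B5xb12. The 13-3B5xb12 libraries all lay inside the range of the agrin libraries, and the log2 fold change was 0.01 (SE 0.08, 95% interval -0.16 to 0.18, edgeR adjusted p 0.998). Lrp4, the agrin receptor, measured 191, 199, 241 and 223 CPM with agrin and 214, 199.7, 224 and 197 CPM with 13-3B5xb12, a log2 fold change of -0.03 (SE 0.07, interval -0.16 to 0.11). Dok7, the cytoplasmic activator of MuSK, measured 16.1, 19.6, 20.8 and 25.0 CPM and 19.2, 21.7, 20.1 and 24.1 CPM, a log2 fold change of 0.06 (SE 0.12, interval -0.18 to 0.31). In both groups the lowest Dok7 value was that of replicate 1 and the highest that of replicate 4. Agrn, which encodes agrin and is transcribed by the myotubes too, had means of 16.4 ± 2.58 and 15.7 ± 1.36 CPM (SD, n = 4; log2 fold change -0.06, SE 0.15), and Rapsn, the scaffold of receptor clusters, had 80.03 ± 6.64 and 77.1 ± 3.74 CPM (-0.05, SE 0.07). Of these 5 genes Agrn had the widest interval, from -0.37 to 0.24. With 13-3B5xb12 replicate 1 left out, the log2 fold change was -0.02 for Musk, -0.08 for Lrp4, 0.10 for Dok7, -0.16 for Agrn and -0.03 for Rapsn. The signs for Musk, Lrp4, Dok7 and Agrn changed when single libraries were left out, and that for Rapsn with a transcript length correction.

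The acetylcholine receptor subunit genes did not separate the groups either. Chrna1 (chromosome 2, 73563215 to 73580338; promoter above), the subunit that binds acetylcholine, measured 543, 572, 600.4 and 544 CPM with agrin and 529, 562, 570.1 and 545 CPM with 13-3B5xb12. The replicates had the same order in both groups, and the log2 fold change was -0.03 (SE 0.06, 95% interval -0.15 to 0.08). Chrnb1, the beta subunit, measured 107, 116, 103 and 107 CPM with agrin and between 111 and 112 CPM in every 13-3B5xb12 library, with a log2 fold change of 0.05 (SE 0.07). Chrnd, the delta subunit, measured 137, 130.1, 114 and 112 CPM and then 116, 142, 114 and 114 CPM, with a log2 fold change of -0.01 (SE 0.07) that became 0.06 (SE 0.06) without replicate 1. Chrng, the gamma subunit of the fetal receptor, had 81.8 ± 4.56 and 79.8 ± 10.9 CPM (SD, n = 4; log2 fold change -0.04, SE 0.13). Chrne, the epsilon subunit that replaces gamma in the adult synapse, was low, at 2.696 ± 1.03 and 2.83 ± 0.413 CPM from 44 to 89 counts per library. Its log2 fold change of 0.14 had an SE of 0.28 and an interval from -0.43 to 0.71. A difference of this size could therefore not be told from 0 in these libraries. Leaving out 13-3B5xb12 replicate 1 gave -0.01 for Chrna1, -0.10 for Chrng and 0.08 for Chrne. Without agrin replicate 3 it was -0.0067 for Chrna1 and 0.027 for Chrne. The signs for Chrnd and Chrng changed when single libraries were left out. Chrna1os, annotated on the other strand beside Chrna1, is described with the lower genes.

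**Figure D2:**
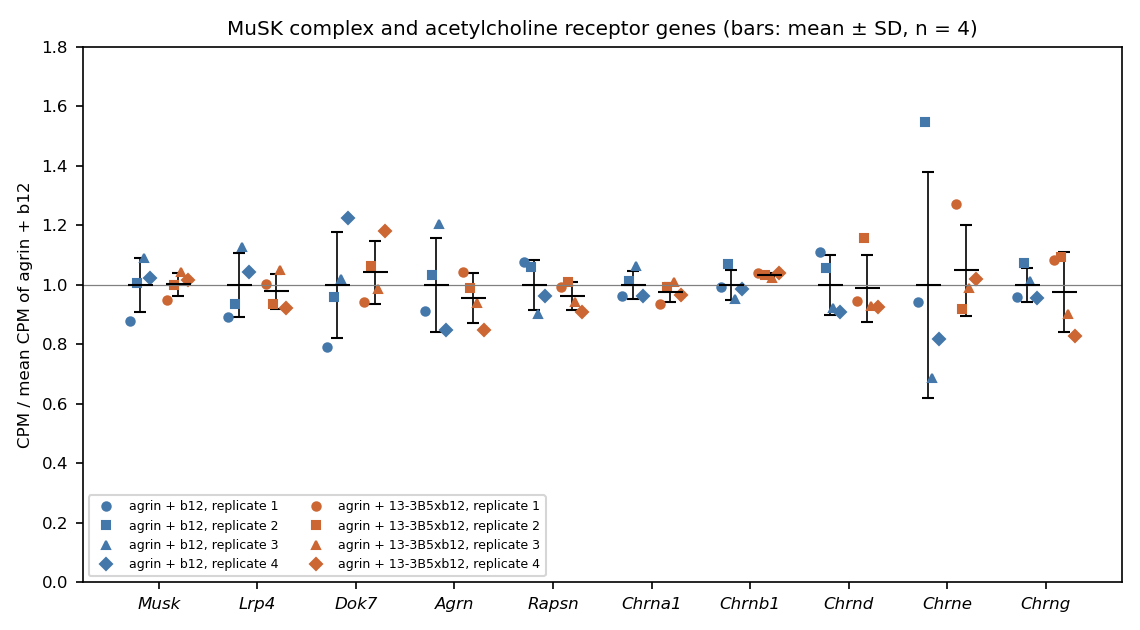
CPM of 10 genes of the MuSK complex and the acetylcholine receptor in each library, divided by the gene's mean in the agrin group, with bars for mean ± SD (n = 4) and point shapes for replicate numbers. The 2 groups overlap for each gene; Chrne, at 2.696 CPM, has the widest spread.

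The wider synaptic lists stayed near the centre of all genes, whose median log2 fold change was -0.01 with 7087 higher and 7518 lower. Of 14605 genes 2.1% were higher and 2.92% lower at an unadjusted p under 0.05, or 376 and 436 genes without agrin replicate 3. Of 18 genes of the MuSK complex and its adaptors, 0 had an unadjusted p under 0.05 and the median was 0.01. The smallest p-values on it belonged to Crk, an adaptor bound by Dok7 (139 ± 9.53 and 149.5 ± 4.92 CPM, log2 fold change 0.11, SE 0.06), and Abl2, a kinase that acts in receptor clustering (0.15, SE 0.10). The value of Abl2 without 13-3B5xb12 replicate 1 was 0.075 and the list's median -0.03. Without agrin replicate 3 the values of Crk and Abl2 were 0.15 (p 0.0388) and 0.24 (p 0.0308), so that 2 of the 18 genes were higher and 0 lower at an unadjusted p under 0.05, with a median of 0.05. Of 11 basal lamina and acetylcholinesterase genes 0 reached that p, with a median of -0.02. Ache, which encodes the enzyme that ends transmission, measured 0.500, 1.36, 1.43 and 1.21 CPM with agrin and 0.365, 0.323, 0.467 and 0.8293 CPM with 13-3B5xb12, lower in 4 of 4 pairs with overlapping groups (log2 fold change -1.17, SE 0.61, p 0.0645). Col4a5, a collagen gene, had -0.17 (SE 0.10), and -0.11 without 13-3B5xb12 replicate 1. Without agrin replicate 3 it had -0.22 (edgeR unadjusted p 0.0416), and 0 genes of this list were higher and 1 lower at that p. Of 8 neuregulin receptor and ETS factor genes, 0 were higher and 1 lower at that p. Etv1, an ETS factor, measured 6.27, 9.48, 10.2 and 7.58 CPM and then 5.71, 7.05, 5.26 and 7.29 CPM (log2 fold change -0.41, SE 0.17, p 0.0257, edgeR adjusted p 0.929). It was lower in 4 of 4 pairs, and the groups overlapped. Without agrin replicate 3, its highest library, the log2 fold change of Etv1 was -0.23 (p 0.204), and 1 gene of the list was higher and 0 lower at that p. Gabpb1, a subunit of the N-box factor GABP, had a log2 fold change of 0.29 (SE 0.15, p 0.0571) and was higher in 4 of 4 pairs. The ETS factors Etv4 and Etv5, named after their values had been seen, had -0.04 (SE 0.13) and 0.21 (SE 0.16). Etv5 was higher in 3 of 4 pairs, and its value without 13-3B5xb12 replicate 1 was 0.10.

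Immediate early genes and feedback inhibitors of the ERK kinases, which follow receptor tyrosine kinase activity in many cells, had a median log2 fold change of 0.07. Of the 25 genes, 20 were higher and 5 lower, and 2 were higher and 0 lower at an unadjusted p under 0.05, beside 2.1% and 2.92% of all genes. The median of the list was above 0 in each of the 4 pairs (0.17, 0.10, 0.13 and 0.07), where the medians of all genes lay between -0.01 and 0.00, and it was 0.04 without replicate 1. Without agrin replicate 3 it was 0.06, with 1 gene higher and 0 lower at that unadjusted p, beside 376 and 436 of 14605 genes. The denervation and atrophy list also had a median above 0 in each pair (0.083, 0.059, 0.091 and 0.0042). Myc, a growth-promoting transcription factor, measured 2.77, 3.29, 3.58 and 3.58 CPM with agrin and 5.53, 4.14, 5.77 and 4.50 CPM with 13-3B5xb12. The 2 groups did not overlap, and the log2 fold change was 0.60 (SE 0.21, p 0.00797, edgeR adjusted p 0.929). It was 0.53 (p 0.0307) without replicate 1. Ier3, a stress and growth factor response gene, measured 17.995, 18.8, 19.1 and 20.7 CPM and then 20.1, 21.6, 22.0 and 27.8 CPM, higher in every pair with overlapping groups (0.25, SE 0.12). Fos and Egr1, the early genes most used as readouts, had log2 fold changes of -0.08 (SE 0.25) and -0.04 (SE 0.25), and the ERK phosphatase gene Dusp6 had 0.19 (SE 0.11). Without replicate 1 these were 0.04, -0.20 and 0.10. These 3 were named after their values had been seen. Against the control the list's median was 0.08, and against 11-3F6xb12 it was 0.06.

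**Figure D3:**
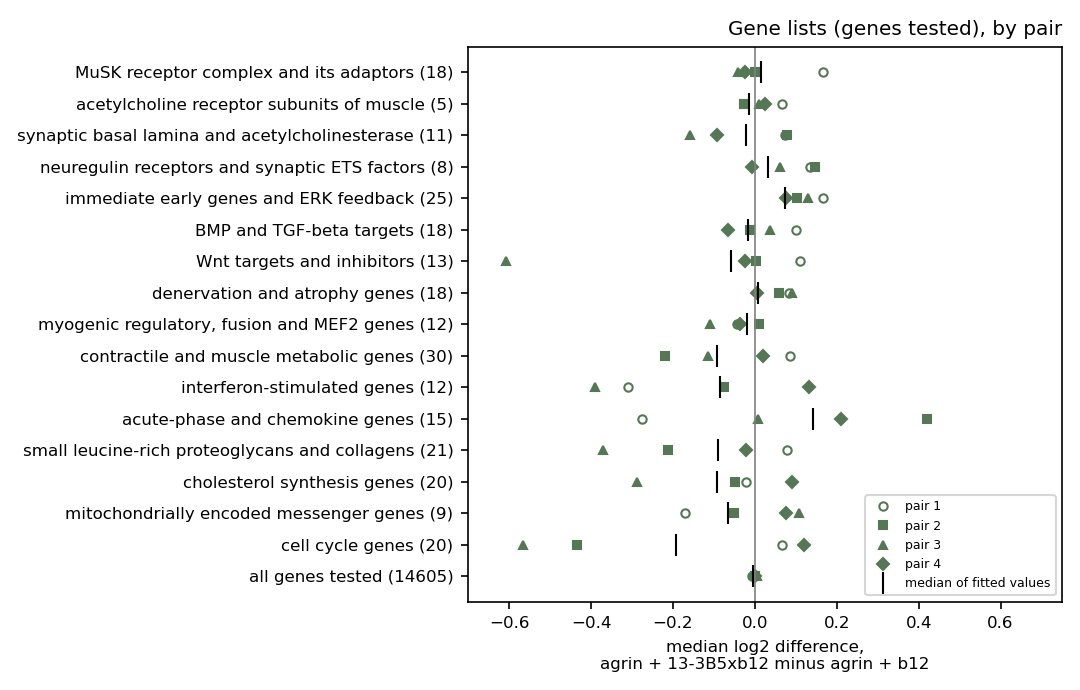
Median log2 difference of 16 gene lists and of all genes tested, in each of the 4 pairs of libraries (points) and over the fitted log2 fold changes (vertical ticks), with the number of genes tested in parentheses. The immediate early list (0.07 to 0.17) and the denervation and atrophy list (0.0042 to 0.091) lie above 0 in each pair, while the cell cycle list runs from -0.57 to 0.12.

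Cell cycle genes, whose products drive DNA replication and division, showed the lowest median of the 16 lists, -0.19, with 16 of 20 genes lower. It was -0.43 and -0.57 in pairs 2 and 3, and 0.07 and 0.12 in pairs 1 and 4. Without replicate 1 the list's median was -0.25. At an unadjusted p under 0.05, 1 was higher and 3 lower, beside 2.1% and 2.92% of all genes. Without 13-3B5xb12 replicate 1 the counts were 0 and 5, beside 1.94% and 2.07% of all genes. Without agrin replicate 3 they were 1 and 0, beside 376 and 436 of 14605 genes, with a median of -0.12. Ccnb1, the cyclin of mitotic entry, measured 9.59, 11.0, 10.5 and 4.83 CPM with agrin and 10.4, 5.54, 4.54 and 4.50 CPM with 13-3B5xb12. Agrin replicate 4 and 13-3B5xb12 replicates 2 to 4 lay between 4.50 and 5.54, and the other 4 libraries between 9.59 and 11.0 (log2 fold change -0.51, SE 0.22, p 0.0267, edgeR adjusted p 0.929). Over the 8 fits that left out 1 library, the log2 fold change of Ccnb1 ran from -0.79, without 13-3B5xb12 replicate 1, to -0.33, without 13-3B5xb12 replicate 2. Mcm2, a subunit of the replicative helicase, went the other way in 4 of 4 pairs, with 16.8, 17.3, 20.6 and 17.6 CPM and then 30.1, 18.3, 26.9 and 21.3 CPM. Its log2 fold change was 0.42 (SE 0.13, p 0.00217) and became 0.24 (p 0.0502) without replicate 1, the library with the highest value.

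Among genes with the same sign in 4 of 4 pairs, the 12 higher and 12 lower ones with the smallest p-values are described below as the extremes of the comparison; the p-values chose them and are no test of them, and each had an adjusted p of 0.929 in edgeR. The higher genes were Pi15, Ccdc86, Wsb2, Shisa2, Ccni, Smurf1, Arid5a, Slpi, Mcm2, Ctdp1, Zfp346 and Hmga2. Their log2 fold changes ran from 0.24 for Wsb2, a substrate receptor of a ubiquitin ligase, to 0.81 for Shisa2, of a family of membrane proteins that hold back Wnt and FGF receptors. Pi15 (chromosome 1, 17601901 to 17630939), a secreted protein of the CRISP family, measured 22.9, 18.4, 36.6 and 34.2 CPM with agrin and 27.2, 31.8, 48.3 and 42.7 CPM with 13-3B5xb12. Replicates 3 and 4 were above replicates 1 and 2 in both groups, so the groups overlapped although each pair differed in the same direction (log2 fold change 0.44, SE 0.12). Slpi, an inhibitor of leukocyte proteases, followed the same split, with 2.91, 2.72, 6.62 and 10.3 CPM and then 5.16, 4.79, 12.9 and 12.8 CPM (0.70, SE 0.21).

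Shisa2 measured 3.00, 2.02, 4.39 and 4.37 CPM with agrin and 6.17, 5.76, 5.26 and 6.20 CPM with 13-3B5xb12, from 43 to 142 counts per library. The groups did not overlap, and the mean difference on the log2 scale was 1.24 in replicates 1 and 2 and 0.38 in replicates 3 and 4. Ccdc86, which encodes a nucleolar coiled-coil protein, measured 6.54, 5.87, 8.10 and 9.99 CPM and then 10.4, 10.4, 14.1 and 11.2 CPM (log2 fold change 0.60, SE 0.16), without overlap. Arid5a, an RNA-binding protein that stabilises Il6 messenger RNA, measured 23.5, 18.4, 24.6 and 19.2 CPM and then 27.1, 25.1, 30.4 and 29.8 CPM (0.39, SE 0.12), also without overlap. Smurf1, a ubiquitin ligase of BMP-receptor Smads, measured 55.1, 53.7, 58.0 and 61.5 CPM and then 79.9, 66.2, 66.1 and 64.9 CPM. The groups did not overlap, and replicate 1 of 13-3B5xb12 stood above its other 3 libraries; the log2 fold change was 0.28 (SE 0.08) with it and 0.19 (SE 0.08) without it. Zfp346, a zinc finger protein that binds double-stranded RNA, and Ctdp1, a phosphatase of the RNA polymerase II tail, did not overlap either, with log2 fold changes of 0.33 (SE 0.10) and 0.32 (SE 0.10). Hmga2, a chromatin protein of proliferating progenitors, had 5.95 ± 1.97 and 9.11 ± 1.48 CPM (SD, n = 4; 0.64, SE 0.19). Ccni (cyclin I) measured 76.8 ± 2.43 and 93.0 ± 11.2 CPM, with the highest value, 109 CPM, in replicate 1.

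The lower genes were Cox7a1, Zfp759, Tspan8, Spon2, H2bc14, Srpx2, Polh, Chrna1os, Snx16, Map2k3os, Olfml3 and Irak1bp1, with log2 fold changes from -1.80 to -0.29. Cox7a1 (chromosome 7, 30184144 to 30186078), the muscle form of a subunit of cytochrome c oxidase, measured 2.41, 4.84, 3.08 and 3.79 CPM with agrin and 1.23, 3.28, 0.679 and 1.09 CPM with 13-3B5xb12. One 13-3B5xb12 library, replicate 2, reached into the agrin range, and the log2 fold change was -1.33 (SE 0.32, p 0.000229) from 16 to 103 counts per library. Snx16, a sorting protein of endosomes, measured 23.04, 22.0, 21.1 and 19.7 CPM and then 17.1, 16.7, 16.9 and 15.7 CPM, without overlap (-0.37, SE 0.11). Zfp759, a zinc finger gene, measured 16.9, 20.04, 15.6 and 14.7 CPM and then 12.1, 12.7, 10.9 and 11.9 CPM, also without overlap (-0.49, SE 0.12). Polh, a translesion DNA polymerase, measured 32.2, 42.1, 38.0 and 34.5 CPM and then 28.2, 27.9, 32.1 and 26.8 CPM; its highest 13-3B5xb12 value lay just under its lowest agrin value (-0.35, SE 0.10). H2bc14, a replication-dependent histone H2B gene, had 16.9 ± 3.48 and 11.2 ± 1.41 CPM (SD, n = 4; -0.58, SE 0.16). Irak1bp1, named for its binding to the kinase Irak1, had -0.62 (SE 0.19) with all libraries and -0.41 (SE 0.17) without replicate 1.

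Both lower antisense genes were scarce. Chrna1os (chromosome 2, 73584850 to 73589208) measured 1.41, 2.96, 1.14 and 1.21 CPM with agrin and 0.137, 0.430, 0.551 and 0.873 CPM with 13-3B5xb12, from 3 to 63 counts per library. The groups did not overlap, and the log2 fold change of -1.80 (SE 0.51) was -1.495 (SE 0.53) without replicate 1. Map2k3os measured 3.41, 2.91, 3.04 and 3.91 CPM and then 0.502, 1.56, 1.53 and 2.53 CPM (-1.19, SE 0.34; -0.89, SE 0.34, without replicate 1). The lowest value of both was in 13-3B5xb12 replicate 1, the library with few detected genes, whose part in this was not tested. Whether the counting used strand is not given in the sources used here. Reads of either gene may therefore not be told apart from those of an overlapping gene on the other strand. Chrna1os as annotated lies outside Chrna1 (73563215 to 73580338), and overlap of Map2k3os with other genes was not examined. Srpx2, a secreted sushi-repeat protein, measured 48.9 ± 6.36 and 39.8 ± 3.08 CPM, and Olfml3, a secreted olfactomedin-like protein, 95.1 ± 8.32 and 78.1 ± 13.1 CPM (SD, n = 4). The log2 fold change was -0.29 for each (SE 0.08 and 0.09).

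**Figure D4:**
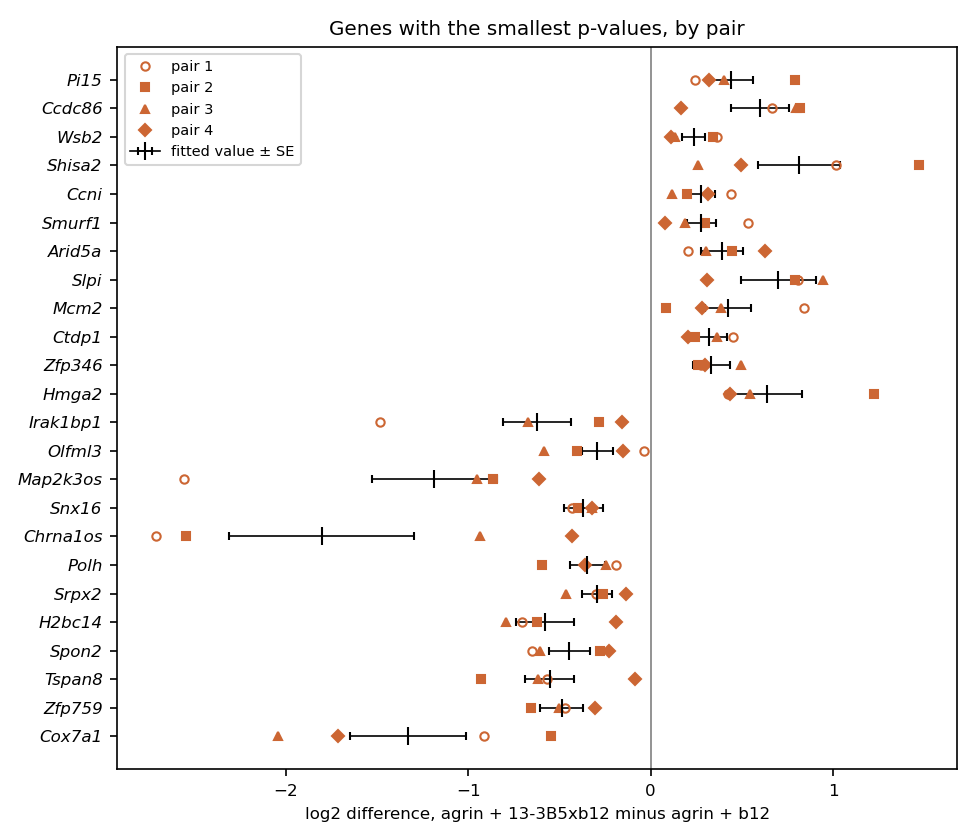
Log2 difference of 13-3B5xb12 minus b12, both with agrin, in each pair of libraries (points) and as fitted (ticks with bars for ± SE), for the 12 higher and 12 lower genes with the smallest p-values. The choice of the genes fixes the common side of their points; pair 1, with 13-3B5xb12 replicate 1, lies farthest out for Chrna1os and Map2k3os.

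Matrix genes lay mostly on the lower side. On the list of small leucine-rich proteoglycans, collagens and related matrix genes, 20 of 21 genes were lower and 1 higher, with a median log2 fold change of -0.09. At an unadjusted p under 0.05, 0 were higher and 4 lower, beside 2.1% and 2.92% of all genes. Without 13-3B5xb12 replicate 1 the counts were 0 and 7, beside 1.94% and 2.07% of all genes, with a median of -0.20. Without agrin replicate 3 they were 0 and 3, beside 376 and 436 of 14605 genes, with a median of -0.05. The median differed between pairs, at 0.08, -0.21, -0.37 and -0.02 in pairs 1 to 4. The genes of the list have a median exon length of 6563 bases, against 4053.5 for all genes, and pair 1 holds the library whose values rose with exon length; their part in the median was not tested. The list was drawn up with earlier results of these samples known, so its direction is not independent evidence.

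Ogn (chromosome 13, 49608046 to 49624501), a small proteoglycan of connective tissue, measured 450.0, 435, 363 and 269 CPM with agrin and 329, 371, 277 and 278 CPM with 13-3B5xb12. It was lower in pairs 1 to 3 and slightly higher in pair 4, and the ranges overlapped (log2 fold change -0.26, SE 0.07, p 0.00116, edgeR adjusted p 0.929). Its neighbour Aspn (chromosome 13, 49544443 to 49567565), another small proteoglycan, measured 20.5, 25.3, 14.1 and 8.45 CPM and then 12.8, 11.2, 9.12 and 9.30 CPM. Again pairs 1 to 3 were lower and pair 4 was not (-0.60, SE 0.18, p 0.00317). Omd, another proteoglycan gene of the same chromosome 13 stretch, named after its values had been seen, had 4.98 ± 1.96 and 2.69 ± 0.939 CPM (SD, n = 4; -0.89, SE 0.31, p 0.00884). Spon2, a secreted matrix protein, measured 25.0, 24.7, 19.2 and 14.2 CPM and then 15.9, 20.3, 12.6 and 12.1 CPM, lower in 4 of 4 pairs (-0.45, SE 0.11). Tspan8, a membrane tetraspanin, measured 40.2, 43.0, 20.6 and 19.6 CPM and then 27.0, 22.5, 13.4 and 18.5 CPM, also lower in each pair (-0.55, SE 0.13). Replicates 3 and 4 were below replicates 1 and 2 in each of the 5 treatments for Ogn, Aspn, Spon2 and Tspan8. The mean difference in replicates 1 and 2 was larger than in replicates 3 and 4 for these genes: -0.34 and -0.17 for Ogn, -0.92 and -0.25 for Aspn, -0.46 and -0.42 for Spon2, and -0.75 and -0.35 for Tspan8.

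The remaining lists, here and below, gave few genes at an unadjusted p under 0.05. Of 14605 genes 2.1% were higher and 2.92% lower at that p, or 376 and 436 genes without agrin replicate 3. Of 30 contractile and muscle metabolic genes 22 were lower (median -0.09), with 0 higher and 3 lower at that p. Tnnc1, slow troponin C, measured 1704, 1886, 1721 and 1618 CPM with agrin and 1100, 1529, 1562 and 1645 CPM with 13-3B5xb12; replicate 1 was the lowest, and the log2 fold change of -0.25 (SE 0.11) was -0.11 (SE 0.07) without it. The contractile list without agrin replicate 3 had 0 higher and 1 lower at that p, with a median of -0.05. Myl4, an embryonic myosin light chain, moved from -0.17 (SE 0.08) to -0.05 (SE 0.07) without 13-3B5xb12 replicate 1, and Mymx, the fusion peptide myomixer, from -0.27 (SE 0.13) to -0.12 (SE 0.09). Of 12 myogenic and fusion genes 1 was higher and 1 lower. Cdh15, M-cadherin, was the higher one, with 283 ± 35.8 and 313 ± 34.3 CPM (SD, n = 4; 0.15, SE 0.06). Its value without agrin replicate 3 was 0.09 (p 0.176). Of 18 denervation and atrophy genes 1 was higher and 0 lower: Fbxo30, a ubiquitin ligase subunit of muscle atrophy, measured 35.9, 41.9, 40.6 and 38.4 CPM and then 46.9, 47.4, 44.8 and 46.3 CPM. The groups did not overlap, and the log2 fold change was 0.24 (SE 0.08, p 0.00413, edgeR adjusted p 0.929) with and without replicate 1. Myh8, the perinatal myosin heavy chain, had 0.18 (SE 0.12), and 0.08 (SE 0.12) without 13-3B5xb12 replicate 1.

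Of 18 BMP and TGF-beta targets 1 was higher and 0 lower (median -0.02, and -0.10 without 13-3B5xb12 replicate 1). Grem1, a secreted BMP antagonist, measured 238, 225, 242 and 382 CPM with agrin and 285, 308, 359 and 376 CPM with 13-3B5xb12, higher in pairs 1 to 3 (log2 fold change 0.31, SE 0.10, p 0.00411). Agrin replicate 4 was the highest of the 8. Of 13 Wnt targets and inhibitors 0 were higher and 1 lower (median -0.06): Lef1, a Wnt-responsive transcription factor, measured 3.36, 7.79, 7.42 and 3.91 CPM and then 3.93, 4.36, 2.67 and 3.40 CPM (-0.63, SE 0.28, p 0.0314). Its 2 highest values were agrin replicates 2 and 3, and the other 6 libraries lay between 2.67 and 4.36 CPM. Its log2 fold change without agrin replicate 3 was -0.36 (p 0.228) and the list had 0 genes at an unadjusted p under 0.05, with a median of 0.01; without 13-3B5xb12 replicate 1 the median was -0.20. Nkd2, an inhibitor of Wnt signalling, had -0.33 (SE 0.18; -0.21 without agrin replicate 3), and Id4, a BMP-responsive inhibitor of myogenic factors, had 0 to 7 counts per library, at or near the limit of detection. Of 20 cholesterol synthesis genes 0 were higher and 1 lower (median -0.09), namely Pmvk, phosphomevalonate kinase (-0.27, SE 0.13); Fdft1, squalene synthase, had -0.14 (SE 0.08). Of 9 mitochondrially encoded messenger genes 0 reached that p (median -0.06), with mt-Nd1 at 0.12 (SE 0.09), mt-Cytb at 0.22 (SE 0.12) and mt-Nd5 at -0.16 (SE 0.10). With 13-3B5xb12 replicate 1 left out, mt-Nd5 was at -0.05 and the list's median at 0.05, and without agrin replicate 3 mt-Nd5 was at -0.08.

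Of 15 acute-phase and chemokine genes 12 were higher and 3 lower, with a median of 0.14 that was 0.23 without replicate 1. The median ran from -0.28 in pair 1 to 0.42 in pair 2, and 1 gene was higher and 0 lower at an unadjusted p under 0.05. Lcn2, lipocalin 2, measured 0.136, 0.141, 3.88 and 3.37 CPM with agrin and 1.325, 1.24, 3.99 and 5.85 CPM with 13-3B5xb12, from 3 to 134 counts per library. Most of its difference lay in replicates 1 and 2, where the agrin libraries were at the limit of detection (mean log2 difference 2.58, against 0.41 in replicates 3 and 4; fitted 1.28, SE 0.45, p 0.00829). Hp, haptoglobin, measured 1.55, 0.704, 4.77 and 5.37 CPM and then 1.92, 1.88, 5.00 and 7.81 CPM (0.52, SE 0.34). Hp and Lcn2 are also liver products. Among the agrin libraries, replicate 3, which holds the hepatocyte transcripts, was the highest for Lcn2 and the next to highest for Hp. Without it the log2 fold change was 1.69 (p 0.0026) for Lcn2 and 0.64 (p 0.110) for Hp. The part of these transcripts in either value was not tested. Of 12 interferon-stimulated genes 0 were higher and 1 lower (median -0.09). Ifit1 measured 1.09 ± 0.394 and 0.380 ± 0.305 CPM (SD, n = 4; -1.65, SE 0.71) from 2 to 36 counts, and Bst2, tetherin, had 0.71 (SE 0.41; 0.45 without agrin replicate 3). The list's median without 13-3B5xb12 replicate 1 was -0.04 and Ifit1 had -1.27 (p 0.0900).

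Set beside the control without agrin, the 13-3B5xb12 group again showed no called gene. Of 14605 genes 0 were called (0%), with a smallest adjusted p of 0.999, and 463 had an unadjusted p under 0.05 (3.17%), 205 higher (1.4%) and 258 lower (1.77%). The log2 fold change against the control was -0.15 (SE 0.08) for Musk, -0.09 (SE 0.06) for Chrna1, -0.11 (SE 0.07) for Chrnb1, 0.27 (SE 0.12) for Pi15, -0.20 (SE 0.07) for Ogn and 0.01 (SE 0.19) for Aspn. This comparison shares the 13-3B5xb12 libraries with the one against agrin, so the values stand side by side and are not independent. Leaving out control replicate 2, whose slope on exon length was 0.099, also gave 0 called genes.

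The antibodies 13-3B5xb12 and 11-3F6xb12, given at the same dose and time with agrin, differed in 5 genes. Of 14605 genes 5 were called (0.0342%), and 904 had an unadjusted p under 0.05 (6.19%), 396 higher (2.71%) and 508 lower (3.48%) with 13-3B5xb12. The groups did not overlap for 186 genes higher (1.27%) and 211 lower (1.44%). Ogn measured 591, 707, 512 and 453 CPM with 11-3F6xb12 in replicates 1 to 4, each above the highest 13-3B5xb12 value of 371 CPM. It was lower with 13-3B5xb12 by a log2 fold change of -0.84 (SE 0.07, edgeR adjusted p 1.85e-08). Spon2 measured 33.8, 35.2, 27.4 and 22.0 CPM with 11-3F6xb12, each above the highest 13-3B5xb12 value of 20.3 CPM, and was lower with 13-3B5xb12 (-0.96, SE 0.11, adjusted p 9.75e-06). Aspn at 27.6, 32.1, 17.0 and 12.7 CPM and Tspan8 at 41.9, 47.6, 32.2 and 21.4 CPM with 11-3F6xb12 overlapped the 13-3B5xb12 range through replicate 4, and both were lower with 13-3B5xb12 (-0.99, SE 0.18, adjusted p 0.0353, and -0.81, SE 0.13, adjusted p 0.00864). Hp measured 0.579, 0.742, 0.501 and 1.88 CPM with 11-3F6xb12, so that the 2 groups only just failed to overlap, and was higher with 13-3B5xb12 (2.04, SE 0.38, adjusted p 0.0337).

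For these 5 genes the mean of agrin with b12 lay between those of the 2 monovalent antibodies. The mean of Ogn was 314 ± 45.3 CPM with 13-3B5xb12, 379 ± 82.8 with b12 and 565 ± 110 with 11-3F6xb12 (SD, n = 4), and that of Aspn was 10.6 ± 1.76, 17.1 ± 7.38 and 22.4 ± 9.04 CPM. Spon2 had 15.2 ± 3.80, 20.8 ± 5.14 and 29.6 ± 6.08 CPM and Tspan8 had 20.4 ± 5.81, 30.9 ± 12.5 and 35.8 ± 11.5 CPM. Hp had the reverse order, with 4.15 ± 2.84, 3.10 ± 2.32 and 0.926 ± 0.645 CPM. In the control, which received no agrin, the means were 364 ± 75.7 for Ogn, 11.3 ± 5.53 for Aspn, 18.4 ± 4.68 for Spon2, 25.5 ± 9.45 for Tspan8 and 3.06 ± 2.21 for Hp. For Aspn the 13-3B5xb12 and control means were thus closest to each other, and none of the 5 passed an adjusted p under 0.05 against the control or against agrin with b12 in the filtered edgeR fit. Without the filter on low counts, Tspan8 (edgeR adjusted p 0.00517) and Aspn (adjusted p 0.0295) were lower than with b12. Against 11-3F6xb12 the log2 fold changes of both hardly moved without the filter. The SE there was 0.13 with the filter and 0.11 without it for Tspan8, and 0.18 and 0.14 for Aspn. Without the replicate block the adjusted p of all 5 against 11-3F6xb12 was 0.992 and 0 genes were called.

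**Figure D5:**
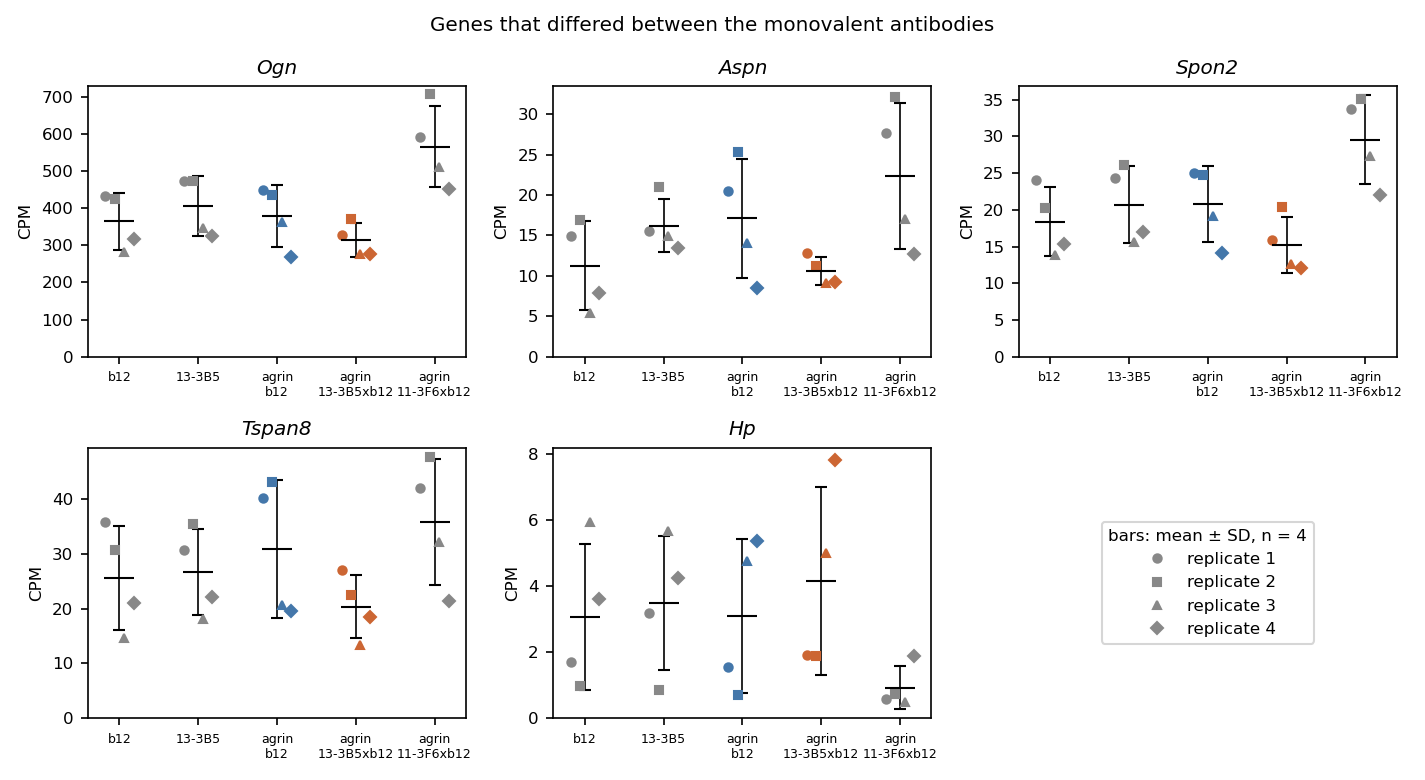
CPM of Ogn, Aspn, Spon2, Tspan8 and Hp in the 20 libraries by treatment, points for libraries with shapes for replicate numbers and bars for mean ± SD (n = 4). Ogn and Spon2 with 13-3B5xb12 (means 314 and 15.2 CPM) lie under every 11-3F6xb12 library.

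Without 13-3B5xb12 replicate 1, 10 of 14963 genes were called against 11-3F6xb12 (0.0668%). Ogn, Spon2, Tspan8 and Hp were among them, while Aspn had an adjusted p of 0.0629 in edgeR, and 10 genes were also called without replicate 4 of 13-3B5xb12. The count was 9 without 11-3F6xb12 replicate 4, 3 without 13-3B5xb12 replicate 3 or without any 1 of 11-3F6xb12 replicates 1 to 3, and 2, Ogn and Spon2, without 13-3B5xb12 replicate 2. The 6 others were Pi15 and, named after their values had been seen, Cebpd, Gda, Scarna2, Sbno2 and the pseudogene 2610005L07Rik. Cebpd, an inflammatory transcription factor, measured 34.04, 36.4, 42.8 and 54.4 CPM with 11-3F6xb12 and 37.7, 53.5, 79.3 and 75.0 CPM with 13-3B5xb12. Pair 1 had the smallest difference, and the log2 fold change was 0.53 (SE 0.13, adjusted p 0.267) with it and 0.68 (adjusted p 0.000293) without it. Gda, guanine deaminase, measured 17.4, 18.6, 21.3 and 31.7 CPM and then 25.5, 32.2, 36.2 and 37.5 CPM, higher with 13-3B5xb12 in each pair (0.63, adjusted p 0.0242, without replicate 1). In the fit of all libraries, 4 of 15 acute-phase genes were higher and 0 lower against 11-3F6xb12 at an unadjusted p under 0.05. These were Hp, Saa3, Lcn2 and Il6, of which 1 was called, beside 2.71% higher, 3.48% lower and 0.0342% called of all genes. On the matrix list 0 of 21 were higher and 6 lower, of which 3 were called, beside the same shares of all genes. Mitochondrially encoded messengers were on the lower side too, with 0 of 9 higher and 4 lower at an unadjusted p under 0.05 and a median of -0.33. Of these mt-Nd1, a subunit of respiratory complex I, had a log2 fold change of -0.43 (SE 0.09, edgeR adjusted p 0.0656). Without 13-3B5xb12 replicate 1 the counts higher and lower were 5 and 0 on the acute-phase list and 0 and 6 on the matrix list. They were 0 and 3 for the mitochondrial messengers, beside 294 and 345 of 14605 genes. The adjusted p of mt-Nd1 in that edgeR fit was 0.219. Counts of mitochondrial genes, ribosomal RNA included, made up 34.9%, 33.9%, 30.1% and 29.8% of the library with 13-3B5xb12 and 39.1%, 39.01%, 32.1% and 31.8% with 11-3F6xb12, lower in 4 of 4 pairs. The part of this share in the gene values was not tested. Both lists were drawn up with results of these samples known, so their direction is not independent evidence.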

How the data were processed

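Total RNA was sequenced from 20 C2C12 cultures, and the 8 libraries with agrin and 13-3B5xb12 or b12 were compared. The deposited table holds raw counts per gene, made by the authors and not normalized. The submitters' processing notes list Trim Galore 0.6.6, cutadapt 2.10, STAR 2.7.6a, HTSeq 0.12.4, DESeq2 1.32.0 and the build GRCm38. The strand setting, annotation release and handling of duplicate reads are not given in the sources used here. Gene positions are those of GENCODE M21 (GRCm38), matched by Ensembl ID for 26667 of 26722 genes. Promoters are RefSeq's (GRCm38.p6), taken for Chrna1, Chrnb1, Chrne, Chrng, Musk, Ogn and Aspn but not for Chrnd.

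Genes were filtered with filterByExpr (minimum count 10, minimum total 15), scaled with TMM factors and fitted in edgeR 4.0.16 (R 4.3.3) by a robust quasi-likelihood model of all 20 libraries, with treatment and replicate number as factors and 12 residual degrees of freedom. Tests were two-sided, with Benjamini-Hochberg adjustment over all genes and a threshold of 0.05. CPM are TMM-scaled, log2 CPM of single libraries used a prior count of 2, and intervals of fold changes are 95%. Levels at or under 3 counts were treated as not detectable. The script was tested on simulated data. Replicate numbers come from the sample titles, and the labels do not say what a number shares. Same-numbered libraries of the 2 groups were treated as pairs, and they deviated together (correlation of deviations across 11148 genes 0.10, 0.20, 0.14 and 0.18). The best match in the other group was the same number for numbers 1, 2 and 4. For number 3 it was number 4, so these correlations alone do not settle pairing by number. Libraries are labelled biological replicates. The p-values of the edgeR fit rest on the spread left between the 20 libraries after treatment and replicate number were fitted. No 2 libraries of a group agreed within sampling noise (chi-square per gene at least 6.77).

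The members, gene lists, tests and naming rule were chosen with earlier results of these data known. Named by rule were 10 receptor genes, the 12 higher and 12 lower genes with the smallest p-values, the same sign in 4 of 4 pairs, at least 1 CPM and no clone symbol, up to 2 genes per pathway list with the smallest p-values, and Ogn, Aspn, Spon2, Tspan8, Hp and mt-Nd1. Alternatives were no replicate block, replicates 1 and 2 against 3 and 4 as the block, fits of only the groups compared, DESeq2 size factors, the Wald test of DESeq2 1.42.0, limma 3.58.1 voom with quality weights, no filter, a mean count of at least 10, removal of genes over 1% of a library, a transcript length correction, and removal of libraries.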

Additional observations from a re-analysis of the deposited data

Results flagged for a closer look

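Within the agrin and the 13-3B5xb12 group, the distance of the highest or lowest of the 4 libraries to the next one was divided by the whole range and set against Dixon's critical value. Of 86 such groups of values 5 exceeded it, where chance gives about 1 in 20. The hepatocyte marker sum was 24.4 CPM in agrin replicate 3, against 0 to 0.182 CPM in the other agrin libraries. Chrna1os was at 2.96 CPM in agrin replicate 2, against 1.14 to 1.41 CPM in the other agrin libraries. Genes with counts numbered 16261 in 13-3B5xb12 replicate 1, against 17811 to 18009. Chrnd was at 142 CPM (142.5) in 13-3B5xb12 replicate 2, against 114 to 116 CPM, and Smurf1 was at 79.9 CPM in 13-3B5xb12 replicate 1, against 64.9 to 66.2 CPM.

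The effect on agrin-treated cells differed between 13-3B5xb12 and 11-3F6xb12, by edgeR's test of the contrast between both groups, for Ogn (log2 difference -0.84, adjusted p 1.85e-08), Spon2 (-0.96, adjusted p 9.75e-06), Tspan8 (-0.81, adjusted p 0.00864), Hp (2.04, adjusted p 0.0337) and Aspn (-0.99, adjusted p 0.0353). The sign was the same in 4 of 4 pairs for Ogn, Spon2, Tspan8, Aspn and Hp.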

How the results depend on the processing

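Against agrin with b12 the number of called genes was 0 in 9 of 11 other settings, the fit with no replicate block among them. It was 25 with no filter on low counts, 1 without 13-3B5xb12 library 1 and control library 2, 0 to 1 when single libraries were left out (573 to 1064 at an unadjusted p under 0.05), and 0 when a replicate number was left out. Against 11-3F6xb12 it was 0 with no replicate block, 10 with replicates 1 and 2 against 3 and 4 as the block, 2 in a fit of only these groups, 29 with the Wald test of DESeq2, 19 with voom, 65 with no filter, 12 with the length correction, 16 without both libraries named above, 2 to 10 without single libraries and 3 to 8 without a replicate number. Against the control it was 1 with voom, 4 with no filter, 1 without both libraries, 0 to 1 without single libraries and 0 to 1 without a replicate number. Ogn and Spon2 were called in 8 of 8 fits that left out a library, Tspan8 in 4, and Aspn and Hp in 2 each; without the 13-3B5xb12 replicate 2 library their adjusted p-values were 0.136, 0.180 and 0.148. The pseudogene 2610005L07Rik was called in 1 of 8 such fits and in 1 of 15 others. The difference in genes with counts was 11.3 and became -248 at a minimum of 5 counts, and ran from -157 to 426 without single libraries.

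Of 1470 values recomputed for 64 named genes, 1443 kept their direction and side of the threshold, 6 passed it with no filter, and 21 changed sign, all of receptor genes near 0. Each of the 64 had an adjusted p of at least 0.929 in the main edgeR fit, far from the threshold. Most genes other than the receptor genes were chosen for small p-values in these libraries. The counts are therefore a description and no measure of robustness. Without both libraries the log2 fold change of Musk was -0.0087 and that of Chrnd 0.063. Without agrin replicate 1 Musk was -0.015 and Dok7 -0.036, and without agrin replicate 3 Agrn was 0.057, Chrnd 0.0079 and Chrng 0.033. Without 13-3B5xb12 replicate 1 Musk was -0.017 and Chrnd 0.060, and without replicate 4 of that group the log2 fold change of Lrp4 was 0.0089, and Agrn was 0.015 and Chrng 0.0032. Without number 1 Musk was -0.029 and Chrnd 0.056, without number 3 Lrp4 was 0.00029, Agrn 0.050 and Chrng 0.0019, and without number 4 Lrp4 was 0.025 and Chrng 0.012. Chrnd was 0.042 with voom and Rapsn 0.0065 with the length correction. The cause of these changes was not tested. Genes under 8 CPM, with a median standard error of 0.45, limit what this depth can show.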
